A study of Caenorhabditis elegans with 12 samples.

Results

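Glutathione S-transferases (GSTs) form one of the largest gene families of detoxification enzymes in *Caenorhabditis elegans*. The genes described here are all rows of the deposited tables whose WormBase symbol is *gst*, *gsto* or *gstk* followed by a number. This rule found 49 of the 19997 listed genes, of which 44 carry a *gst* symbol, 3 a *gsto* symbol (omega class) and 2 a *gstk* symbol (kappa class). Messenger RNA had been sequenced from 12 samples of whole hermaphrodites in 5 groups. On day 1 of adulthood, *daf-2(e1370); eri-1(mg366)* animals fed control RNAi bacteria (n = 3) were set against *eri-1(mg366)* animals, called WT here as in the labels (n = 3). Germline-deficient *glp-4(bn2)* animals were collected on day 1, day 3 and day 7 (n = 2 at each age). All groups had received FUDR, a drug that blocks DNA synthesis and so prevents progeny. The labels name control RNAi food only for the *daf-2* samples, so food and genotype cannot be told apart in that comparison. The *eri-1* allele, which enhances RNAi, was shared by the *daf-2* and WT animals and is not named for the *glp-4* animals. The labels give 1 larval temperature for all samples, whereas the methods describe a higher one for *glp-4* animals, which lack most germ cells only when raised there.

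GSTs join the tripeptide glutathione to reactive, electrophilic molecules, including drugs and products of lipid oxidation such as 4-hydroxynonenal, and the conjugates are then exported from the cell. Many worm GST genes are induced by SKN-1, the worm counterpart of the mammalian Nrf transcription factors, and DAF-16, the transcription factor released when the insulin receptor homologue DAF-2 is weakened, also acts on detoxification genes. Omega-class enzymes reduce oxidised substrates, kappa-class enzymes sit in peroxisomes and mitochondria, and zeta-class enzymes such as GST-42 act as maleylacetoacetate isomerases in the breakdown of tyrosine.

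All 49 genes are annotated as protein coding in Ensembl release 115 of WBcel235. Their coding regions span a median of 209 residues (174 to 309). The longest belongs to *gsto-3*. Chromosome II carries 26 of the 49 genes, chromosome V carries 9, IV carries 5, III carries 4, X carries 3 and I carries 2. Where at least 3 members lie within 20000 bases of the next, they form 4 runs of neighbours that together hold 25 genes. A run of 9 genes on chromosome II from 13608154 to 13630887 holds *gst-20*, *gst-24*, *gst-15*, *gst-14*, *gst-12*, *gst-16*, *gst-19*, *gst-17* and *gst-18*, all on the minus strand. A second run of 9 from 15163817 to 15185389 on the same chromosome holds *gst-26*, *gst-27*, *gst-28*, *gst-29*, *gst-39*, *gst-31*, *gst-32*, *gst-34* and *gst-35*, also on the minus strand. A run of 4 on chromosome II from 4879891 to 4893573 holds *gst-6*, *gst-7*, *gst-8* and *gst-9*, and *gst-3*, *gst-2* and *gst-4* lie together on chromosome IV from 10139380 to 10143099. Reads shared by close paralogues were apportioned by estimation, so levels of neighbours of similar sequence are uncertain. The library kit did not keep strand, and 12 members overlap an exon of another gene, among them *gst-4* with *dhs-12*, *gst-5* with *nos-1*, *gsto-1* with *kle-2* and *gst-22* with *F21H7.12*, whose reads cannot be told apart there.

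Total counts per sample ranged from 4538353 to 22484551, and the day 7 samples were the shallowest, with 4538353 and 5216982 counts. The detection floor used below, 3 counts in a sample, equals 0.133 to 0.661 CPM (counts scaled to a library of 1000000) and allows for counting error only. The 6 germline markers summed to between 11.03 and 13.8 TPM (transcript abundance scaled to the same total in every sample) in *glp-4* animals on day 1 and between 624 and 703 TPM in *daf-2* and WT animals. The e1370 allele is a missense change, so *daf-2* transcript does not check the genotype. It stood at a mean of 191 CPM in *daf-2* and 160 CPM in WT animals. Nothing in the labels says that the samples of a group came from separate cultures, so the p-values measure the spread between these samples, which may be technical.

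A few genes carried most of the family's transcript. Summed over all 49 members, the level was 1290 to 1349 TPM in WT, 1801 to 1845 TPM in *daf-2*, 1979 to 2178 TPM in *glp-4* on day 1, 1356 to 1375 TPM on day 3 and 1009 to 1061 TPM on day 7. The ranges of WT and *glp-4* day 3 did not overlap although their means, 1325 and 1366 TPM, were close, and the order of the groups from low to high was *glp-4* day 7, WT, *glp-4* day 3, *daf-2* and *glp-4* day 1. The pi-class gene *gst-1* (chromosome III, 9059331 to 9060181) was the most abundant member in all 5 groups. It took 26.2% to 26.9% of the summed TPM in WT, 20.6% to 25.0% in *daf-2* and 35.9% to 36.9% in *glp-4* day 1 samples. By mean TPM over all 12 samples, which pools unlike groups, the 5 highest members were *gst-1*, *gst-7*, *gst-10*, *gst-4* and *gst-5*. The order differed by group: *gst-7* was rank 2 in *daf-2* and WT but rank 12, 11 and 7 in *glp-4* on days 1, 3 and 7, and *gst-5* was rank 12 in WT. At the other end, 7 members (*gst-2*, *gst-8*, *gst-17*, *gst-18*, *gst-25*, *gst-31* and *gst-37*) had no more than 10 counts in any sample, and *gst-37* had 3 counts in all 12 samples together. Expression of these genes was at or near the limit of detection at this depth, and 7 members (the same without *gst-17* and with *gst-32*) passed the filter on low counts in no comparison.

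**Figure D1:**
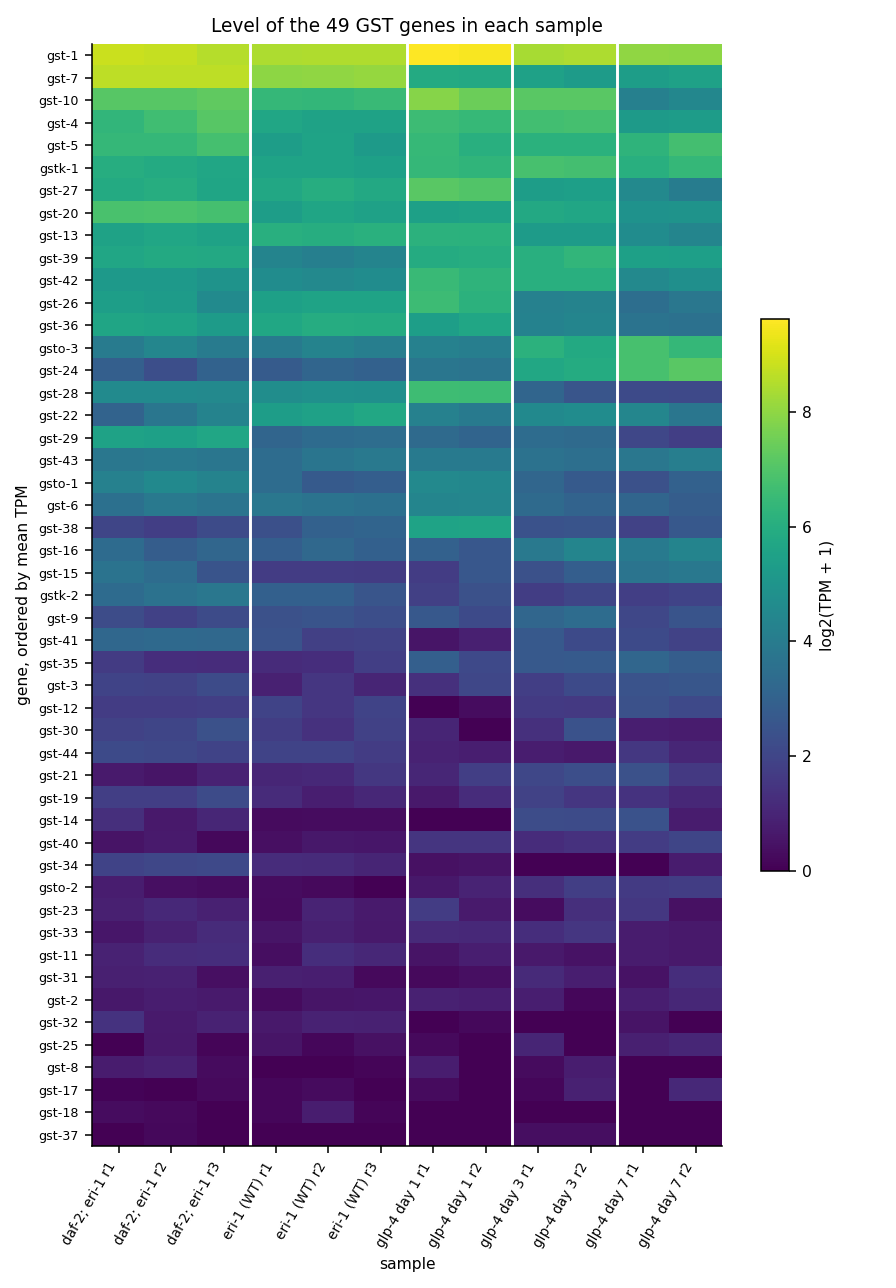
Level of each of the 49 GST genes (rows, ordered by mean TPM) in each of the 12 samples (columns, grouped by genotype and age, r for replicate), as log2(TPM + 1) in colour. *gst-1* is at the top in every group, *gst-7* is high in *daf-2* and WT samples and lower in all *glp-4* samples, and *gst-24* and *gsto-3* brighten from day 1 to day 7.

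The first comparison asks how the family differs on day 1 between animals with reduced insulin/IGF-like signaling and WT animals. More members were higher than lower in *daf-2*: of 36 members that passed the filter on low counts, 15 were higher and 6 lower at an adjusted p under 0.05 in edgeR's quasi-likelihood test (Benjamini-Hochberg, 13528 genes tested). Over all genes, 25.5% were called higher and 22.5% lower, against 41.7% and 16.7% of the tested members. The median log2 fold change was 0.18 over the tested members and 0.00 over all genes. At least a 2-fold difference was reached by 11 of the higher and 2 of the lower members, where 10.6% and 4.15% of all genes did so. In whole animals, a lower level can mean less RNA per cell or fewer cells of a type, and these cannot be told apart. The 6 sperm markers summed to 379 to 417 TPM in *daf-2* and 152 to 207 TPM in WT samples, and 5 intestinal markers to 303 to 366 TPM and 476 to 501 TPM. All 6 sperm markers were called higher in *daf-2*. Of the 5 intestinal markers, 3 were called lower and 1, *ges-1*, was called higher. Among 6 oocyte and egg markers 5 were lower and 0 higher, and among 6 germline markers 4 were lower and 1 higher. Their part in the GST results was not tested.

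The largest difference belonged to *gst-29* (chromosome II, 15168538 to 15169861). Its level was 22.9, 20.9 and 23.9 CPM (scaled with TMM factors, as are all CPM values of single genes below) in the *daf-2* samples and 4.004, 5.05 and 5.31 CPM in the WT samples, so the groups lay far apart. The log2 fold change was 2.23 ± 0.12 (SE), with an adjusted p of 2.8e-07 in edgeR's quasi-likelihood test. Its neighbour *gst-39* stood at 26.1, 27.8 and 26.3 CPM in *daf-2* and 10.1, 9.06 and 10.4 CPM in WT, a log2 fold change of 1.43 ± 0.09 (SE; edgeR adjusted p = 7.9e-07). *gst-15*, from the other run of 9, was more variable. It measured 6.61, 5.15 and 2.40 CPM in *daf-2* against 1.32, 1.38 and 1.30 CPM in WT, and replicate 3 of *daf-2* was the lowest of its group while still above every WT sample. The log2 fold change was 1.82 ± 0.35 (SE), and 2.15 without that replicate. *gst-41* was at 4.71, 4.87 and 4.605 CPM in *daf-2* and 2.63, 1.58 and 1.63 CPM in WT, and the groups did not overlap (log2 fold change 1.28 ± 0.22 SE, edgeR adjusted p = 0.00073).

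Members whose function is known in worms were among those that rose. *gst-4* (chromosome IV, 10142225 to 10143099), whose promoter is the usual reporter of SKN-1 activity, stood at 42.7, 51.5 and 69.5 CPM in *daf-2* and at 27.97, 26.1 and 25.7 CPM in WT. The WT samples were tight and the *daf-2* samples spread, with replicate 3 the highest. The log2 fold change was 1.04 ± 0.15 (SE; edgeR adjusted p = 0.00017), and 0.82 without *daf-2* replicate 3. *gst-10*, which acts on 4-hydroxynonenal, was at 73.2, 64.2 and 70.9 CPM against 43.4, 46.3 and 47.7 CPM, a smaller but tighter difference (log2 fold change 0.60 ± 0.06 SE, edgeR adjusted p = 2.7e-05). *gst-5*, which also acts on 4-hydroxynonenal, was at 40.1, 33.6 and 39.2 CPM against 15.7, 16.7 and 16.9 CPM, with no overlap (log2 fold change 1.196 ± 0.09 SE, edgeR adjusted p = 2.0e-06). Its reads cannot be told apart from those of *nos-1* where the exons overlap. Of the other members that act on 4-hydroxynonenal, *gst-24* was not called (log2 fold change -0.32). *gst-8* was too low to be tested, with 7, 6 and 2 counts in *daf-2* and 0, 0 and 1 counts in WT.

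*gst-7* passed the test and the more abundant *gst-1* did not, and the difference between the 2 genes was not tested. *gst-7* (chromosome II, 4882062 to 4883358) was at 222, 214 and 208 CPM in *daf-2* and at 144, 152 and 159 CPM in WT, a log2 fold change of 0.50 ± 0.05 (SE; edgeR adjusted p = 1.0e-05). *gst-1* was at 254, 231 and 192 CPM in *daf-2* and at 198, 208 and 208 CPM in WT. Here the groups overlapped, because *daf-2* replicate 3 lay below all WT samples, and the log2 fold change of 0.14 ± 0.08 (SE) did not pass the test (edgeR adjusted p = 0.19). Without that replicate *gst-1* was called higher (0.24, edgeR adjusted p = 0.00082), as it was with library totals in place of TMM (0.26, adjusted p = 0.012).

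The classes outside the main branch were mixed. *gsto-1*, an omega-class enzyme that protects worms against oxidative stress, stood at 10.8, 13.4 and 10.5 CPM in *daf-2* and at 5.95, 3.61 and 4.05 CPM in WT. The groups did not overlap, and the log2 fold change was 1.34 ± 0.19 (SE; edgeR adjusted p = 0.00015). *gsto-3* was at 9.31, 11.3 and 10.4 CPM against 10.7, 14.5 and 12.02 CPM, with overlapping groups (edgeR adjusted p = 0.12), and *gsto-2* was too low to be tested, with 0 to 9 counts in these 6 samples. Mitochondrial *gstk-2* rose from 4.12, 4.53 and 3.17 CPM in WT to 5.46, 6.61 and 7.46 CPM in *daf-2* (log2 fold change 0.74 ± 0.19 SE, edgeR adjusted p = 0.0072). Peroxisomal *gstk-1* was at 36.5, 32.8 and 27.6 CPM in *daf-2* and 28.1, 29.1 and 26.7 CPM in WT and did not pass the test (log2 fold change 0.21 ± 0.10 SE, edgeR adjusted p = 0.11). It was called higher without *daf-2* replicate 3 (0.32, adjusted p = 0.0051) and with library totals in place of TMM (0.33, adjusted p = 0.013). Of the zeta-class pair, *gst-42* was at 29.1, 27.2 and 22.3 CPM against 20.6, 19.1 and 21.2 CPM, a small difference (log2 fold change 0.36 ± 0.11 SE, edgeR adjusted p = 0.015). Its adjusted p rose to 0.066, 0.056 and 0.056 when *daf-2* replicate 1, *daf-2* replicate 2 or WT replicate 2 was left out, with log2 fold changes of 0.27, 0.34 and 0.32. *gst-43* did not pass the test, at 6.56, 6.68 and 5.86 CPM in *daf-2* and 4.92, 6.63 and 7.27 CPM in WT (edgeR adjusted p = 0.95). The remaining members called higher were *gst-3*, *gst-19*, *gst-20* and *gst-34*. Of these, *gst-3*, *gst-19* and *gst-34* passed the filter on low counts only through the *daf-2* samples, where they are high, so their being tested was not independent of their direction.

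Among the 6 lower members the largest difference was that of *gst-22* (chromosome V, 16231032 to 16232282). It stood at 3.96, 6.47 and 9.36 CPM in *daf-2* and 21.7, 25.0 and 30.0 CPM in WT. All *daf-2* samples lay below all WT samples, with replicate 3 of *daf-2* the closest (log2 fold change -1.96 ± 0.24 SE, edgeR adjusted p = 6.1e-05, and -2.34 without that replicate). *gst-38* was at 2.00, 1.53 and 2.20 CPM against 2.75, 4.92 and 5.26 CPM, again without overlap (log2 fold change -1.16 ± 0.27 SE, edgeR adjusted p = 0.0046). *gst-13* was at 26.8, 28.2 and 24.8 CPM in *daf-2* and 39.3, 39.6 and 41.7 CPM in WT (log2 fold change -0.60 ± 0.07 SE, edgeR adjusted p = 6.5e-05). *gst-36* was at 27.7, 25.5 and 19.6 CPM against 29.9, 36.95 and 35.7 CPM (log2 fold change -0.50 ± 0.13 SE, edgeR adjusted p = 0.0075). *gst-26* was at 20.1, 18.1 and 10.8 CPM against 22.02, 24.6 and 24.7 CPM (log2 fold change -0.55 ± 0.18 SE, edgeR adjusted p = 0.027), and its adjusted p was 0.079 without WT replicate 2 (log2 fold change -0.53) and 0.085 without WT replicate 3 (-0.52). Without *daf-2* replicate 3, the lowest sample, its log2 fold change was -0.31 (edgeR adjusted p = 0.016). *gst-28* had the smallest difference of the 6 (log2 fold change -0.34 ± 0.10 SE, edgeR adjusted p = 0.015), but not without WT replicate 3 (-0.32, adjusted p = 0.056).

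**Figure D2:**
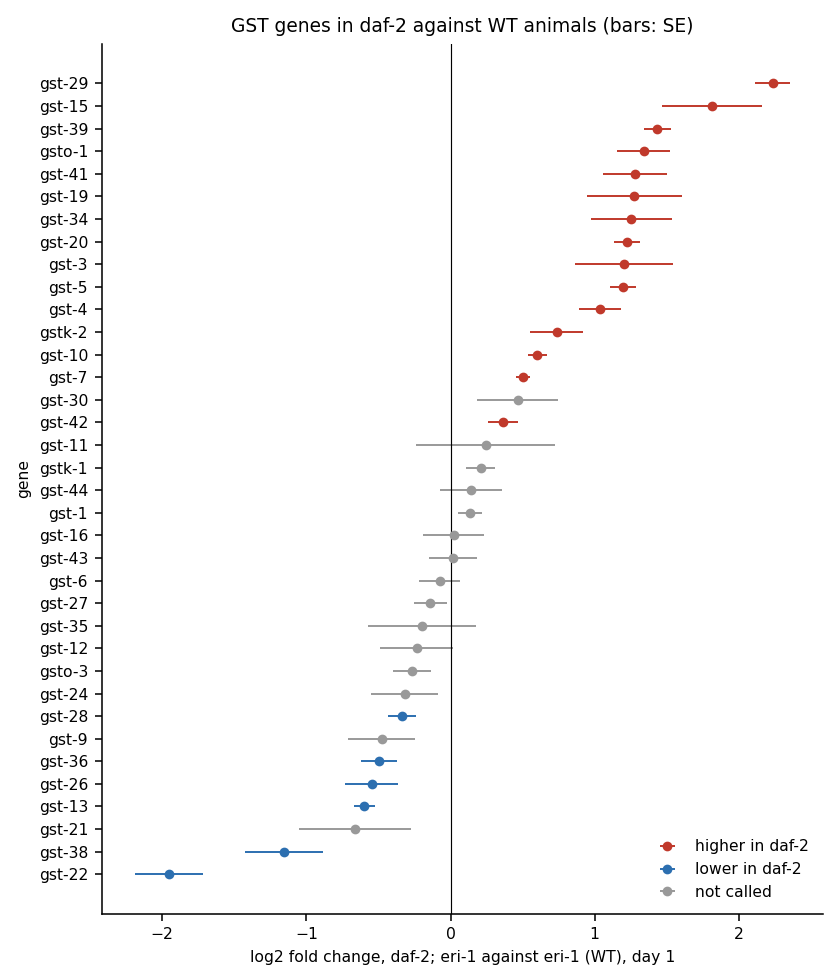
Log2 fold change of the 36 tested GST genes (y axis) in *daf-2; eri-1* against *eri-1* (WT) animals on day 1 (x axis), with SE bars, in red where called higher, blue where called lower and grey where not called. The 15 red genes run from *gst-42* (0.36) to *gst-29* (2.23) and the 6 blue genes from *gst-22* (-1.96) to *gst-28* (-0.34).

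The second question was how the family changes as *glp-4* animals, taken as normally ageing animals without a germline, grow older. By day 7 more members were lower than higher. Of 34 members tested, 8 were higher and 12 lower on day 3 than on day 1, and 7 were higher and 17 lower on day 7 than on day 1 (edgeR's quasi-likelihood test, adjusted p under 0.05 over 13222 genes). Over all genes, 26.6% were called higher and 27.5% lower by day 3, and 30.6% and 31.3% by day 7, against 20.6% and 50.0% of the tested members by day 7. From day 3 to day 7, 2 members were higher and 15 lower, with 14.2% and 18.4% over all genes. The median log2 fold change over the tested members was 0.08 by day 3, -0.63 by day 7 and -0.66 from day 3 to day 7, against 0.00, 0.02 and 0.01 over all genes, and the first 2 of these medians stayed the same with *gst-14* set to the lower bound given below. With library totals in place of TMM factors, the median of all genes moved to 0.56 for day 7 against day 1 and 0.51 for day 7 against day 3. The medians of the tested members moved to -0.09 and -0.16. On this scale 8 members were higher and 15 lower by day 7, and 3 were higher and 9 lower from day 3 to day 7. The 3 comparisons share samples. Among the members called higher at both later ages, *gst-12*, *gst-14* and *gst-41* passed the filter only through those ages, so a higher level was built into their being tested.

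Markers of several tissues moved with age in the same samples. The 6 hypodermal markers summed to 4373 to 4916 TPM on day 1, 376 to 380 TPM on day 3 and 129 to 132 TPM on day 7. The 5 intestinal markers fell from 2822 to 2842 TPM on day 1 to 715 to 816 TPM on day 3 and 561 to 613 TPM on day 7, and all 5 were called lower by day 7. Body wall muscle markers went from 4932 to 5796 TPM on day 1 to 838 to 890 TPM on day 7, whereas neuronal markers summed to 380 to 400 TPM on day 1 and 1025 to 1036 TPM on day 7. With TMM factors, 3 of the 6 neuronal markers were called higher and 0 lower by day 7, and their median log2 fold change was -0.01. Germline markers stood at 124 to 127 TPM on day 7, above the 11.03 to 13.8 TPM of day 1. The part of these shifts in the GST results was not tested.

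2 members, *gst-24* and *gsto-3*, rose by day 3 and were the ones called higher again from day 3 to day 7. *gst-24* (chromosome II, 13610443 to 13611366), which acts on 4-hydroxynonenal, measured 8.35 and 7.66 CPM on day 1, 31.5 and 36.2 CPM on day 3, and 53.0 and 67.7 CPM on day 7. No sample of one age overlapped with another age. The log2 fold change was 2.08 ± 0.17 (SE) by day 3 and 2.92 ± 0.17 (SE) by day 7, with edgeR adjusted p-values of 1.5e-07 and 2.3e-09, and 0.84 ± 0.15 (SE) from day 3 to day 7 (edgeR adjusted p = 0.00062). In TPM, *gst-24* went from rank 21 of the family on day 1 to rank 2 on day 7. *gsto-3* (chromosome III, 378137 to 381298) measured 9.42 and 11.03 CPM on day 1, 40.1 and 35.6 CPM on day 3, and 51.3 and 50.3 CPM on day 7. It was rank 18 of the family in TPM on day 1 and rank 3 on day 7. Its log2 fold change was 1.88 ± 0.15 (SE) by day 3 and 2.31 ± 0.15 (SE) by day 7 (edgeR adjusted p = 9.9e-08 and 7.6e-09). The step from day 3 to day 7 was small (0.42 ± 0.14 SE, edgeR adjusted p = 0.027). Its adjusted p was 0.064 or 0.20 without replicate 1 or 2 of day 3 (log2 fold change 0.50 or 0.33) and 0.14 or 0.11 without replicate 1 or 2 of day 7 (0.40 or 0.43).

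Other members were barely detected on day 1 and present later. *gst-14* (chromosome II, 13614781 to 13616100) had 0 counts in both day 1 samples, 16 and 15 counts on day 3, and 11 and 2 counts on day 7. Against a floor of 3 counts in each day 1 library, its level was at least 6.90-fold higher on day 3. It was called higher by day 7 as well (edgeR adjusted p = 0.0039), but not without day 7 replicate 1 (adjusted p = 0.10), since the other sample lay under the floor. Its neighbour *gst-12* had 0 and 2 counts on day 1, 12 and 11 counts on day 3, and 14 and 13 counts on day 7. The ratio of group sums was 15.5 for day 3 (95% exact interval 3.82 to 135) and 22.1 for day 7 (5.56 to 192), intervals that cover counting error only. *gst-41* was at 0.32 and 0.55 CPM on day 1, 3.32 and 2.20 CPM on day 3, and 1.73 and 1.36 CPM on day 7. Both later ages lay above day 1 (log2 fold change 2.61 ± 0.55 SE and 1.76 ± 0.62 SE, edgeR adjusted p = 0.0011 and 0.023). The day 7 call was lost without replicate 1 of day 1 (1.46, adjusted p = 0.11) and without replicate 1 or 2 of day 7 (1.58 and 1.93, adjusted p = 0.14 and 0.065). *gst-16* was called higher at both ages and *gst-15* by day 7, though *gst-15* (log2 fold change 1.32) was not called without day 7 replicate 2 (1.24, adjusted p = 0.053) and was at 0.87 or 2.02 without replicate 1 or 2 of day 1.

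The largest falls by day 7, those of *gst-28* and *gst-38*, came mostly by day 3. *gst-28* (chromosome II, 15166194 to 15167577) went from 67.4 and 63.4 CPM on day 1 to 4.595 and 3.02 CPM on day 3 and 1.73 and 1.51 CPM on day 7. Its TPM rank in the family went from 4 on day 1 to 23 on day 3. The log2 fold change was -4.09 ± 0.19 (SE) by day 3 and -5.33 ± 0.23 (SE) by day 7 (edgeR adjusted p = 3.4e-10 and 1.1e-10). *gst-38* (chromosome V, 15915162 to 15916070) went from 36.2 and 36.9 CPM to 3.06 and 3.43 CPM and then 1.55 and 3.03 CPM. Day 7 lay just below day 3, and both were far below day 1 (log2 fold change -3.49 ± 0.22 SE and -3.96 ± 0.25 SE against day 1). *gst-26* and *gst-27*, next to *gst-28*, fell with it. *gst-26* measured 56.3 and 41.7, then 9.45 and 10.3, then 4.32 and 5.60 CPM, and *gst-27* measured 91.9 and 82.6, then 23.4 and 25.4, then 10.4 and 7.42 CPM. The log2 fold changes by day 7 were -3.29 ± 0.21 (SE) and -3.30 ± 0.17 (SE), and each age was below the one before in both genes. The *gst-26* step from day 3 to day 7 (-0.98) was not called with library totals in place of TMM (-0.47, edgeR adjusted p = 0.16). It was -0.93 without replicate 2 of day 3 and -0.83 without replicate 1 of day 7, and was not called in either fit. *gsto-1* went from 16.1 and 15.1 CPM to 5.23 and 3.84 CPM and then 2.25 and 3.64 CPM (log2 fold change -2.38 ± 0.28 SE by day 7, edgeR adjusted p = 4.4e-06). The most abundant gene, *gst-1*, was at 518 and 476 CPM on day 1, 193 and 209 CPM on day 3 and 123 and 122 CPM on day 7 (log2 fold change -1.30 ± 0.10 SE and -2.02 ± 0.11 SE against day 1).

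Another set of members kept most of their level on day 3 and was much lower on day 7. *gst-10* (chromosome V, 2561690 to 2564645) stood at 146 and 108 CPM on day 1, 79.4 and 81.5 CPM on day 3, and 7.95 and 9.39 CPM on day 7. Day 1 and day 3 differed by less than 2-fold (log2 fold change -0.66 ± 0.14 SE, and -0.44 without replicate 1 of day 1), and day 7 lay far below both (-3.21 ± 0.18 SE against day 3, edgeR adjusted p = 1.4e-08). *gst-4* was at 61.6 and 54.5 CPM on day 1, 59.4 and 64.7 CPM on day 3, and 17.1 and 18.3 CPM on day 7. It did not pass the test between day 1 and day 3 (edgeR adjusted p = 0.54) and had a log2 fold change of -1.80 ± 0.14 (SE) from day 3 to day 7 (edgeR adjusted p = 2.6e-07). *gst-29*, *gst-39* and *gst-20* were likewise not called on day 3 and called lower on day 7. *gst-29* was at 5.35 and 4.47, then 5.23 and 5.08, then 1.38 and 1.06 CPM, and *gst-39* at 36.3 and 36.8, then 36.4 and 44.3, then 19 and 18.8 CPM. Whether these genes' early and late steps differ was not tested. Zeta-class *gst-42* (chromosome X, 11726264 to 11727936) went from 89.0 and 73.3 CPM to 59.1 and 60.8 CPM and then 15.7 and 19.1 CPM (log2 fold change -2.21 ± 0.15 SE by day 7). Its fall by day 3 was small (-0.44 ± 0.13 SE, edgeR adjusted p = 0.011) and was not called without replicate 1 of day 1 (-0.30, adjusted p = 0.060), replicate 1 of day 3 (-0.42, adjusted p = 0.083) or replicate 2 of day 3 (-0.46, adjusted p = 0.062). *gst-22*, also called lower from day 3 to day 7 (-0.87 ± 0.25 SE, edgeR adjusted p = 0.016), was not called without replicate 1 or 2 of day 3 (-0.95 and -0.80, adjusted p = 0.061 and 0.11) or replicate 2 of day 7 (-0.57, adjusted p = 0.19).

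**Figure D3:**
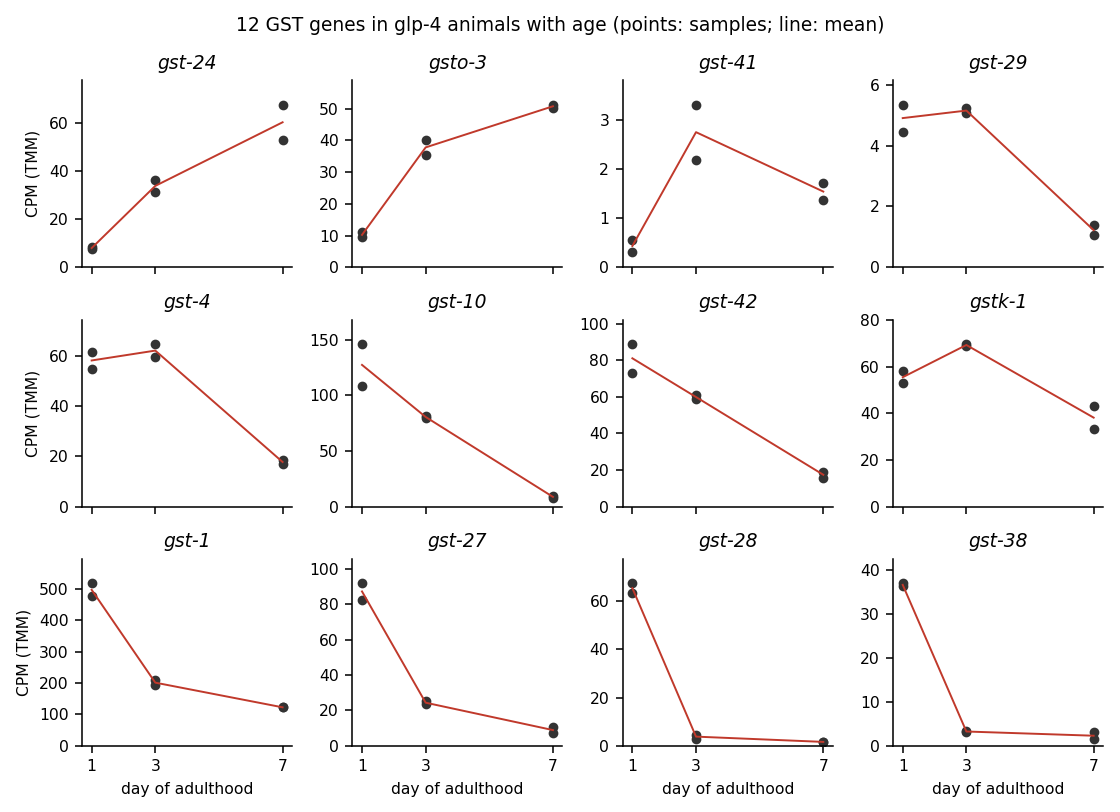
Level of 12 GST genes in *glp-4* animals (y axis, TMM-scaled CPM from 0) against day of adulthood (x axis), with a point for each of the 2 samples of an age and a line through the means. *gst-24* climbs from a lowest value of 7.66 to a highest of 67.7 CPM and *gsto-3* from 9.42 to 51.3 CPM, *gst-4*, *gst-10* and *gst-42* drop mainly after day 3, and *gst-28* and *gst-38* drop before it.

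Other members changed in both directions, fell by less than 2-fold or were not called. Peroxisomal *gstk-1* was at 58.0 and 53.1 CPM on day 1, 69.8 and 68.9 CPM on day 3 and 33.3 and 43.01 CPM on day 7. Day 7 was below both earlier ages (log2 fold change -0.54 ± 0.14 SE against day 1, edgeR adjusted p = 0.0036), but with library totals in place of TMM the difference from day 1 was 0.00 on the log2 scale, and it was not called without day 7 replicate 1 (-0.38, adjusted p = 0.072). Its call on day 3 (0.32 ± 0.13 SE) was at the threshold and was lost without replicate 2 of day 1 (0.25, adjusted p = 0.14), replicate 1 or 2 of day 3 (0.31 and 0.33, adjusted p = 0.18 and 0.15) or replicate 1 or 2 of day 7 (adjusted p = 0.053 and 0.050). *gst-9* measured 3.21 and 2.097 CPM on day 1, 4.47 and 5.49 CPM on day 3 and 1.38 and 2.12 CPM on day 7, highest on day 3 in both samples. Its day 3 call (log2 fold change 0.91 ± 0.37 SE, edgeR adjusted p = 0.048) was lost without replicate 2 of day 1 (0.62, adjusted p = 0.23), replicate 1 or 2 of day 3 (1.05 and 0.76, adjusted p = 0.089 and 0.22) or replicate 1 or 2 of day 7 (adjusted p = 0.053 and 0.054). Its fall from day 3 to day 7 (-1.48 ± 0.42 SE, edgeR adjusted p = 0.014) was not called without replicate 2 of day 3 (-1.35, adjusted p = 0.096) or replicate 1 of day 7 (-1.24, adjusted p = 0.11). *gst-7* measured 37.7 and 35.6 CPM, then 26.6 and 22.8 CPM, then 19.2 and 21.5 CPM, both later ages lying below day 1 (log2 fold change -0.85 ± 0.15 SE by day 7, edgeR adjusted p = 0.00018). With library totals in place of TMM this difference was -0.31 and not called (adjusted p = 0.081). *gst-5* stood at 37.5 and 30.99, then 35.1 and 39.5, then 27.5 and 29.7 CPM, and no step passed the test. Day 7 was called lower than day 1 without replicate 2 of day 1 (-0.41, adjusted p = 0.031), and lower than day 3 without replicate 1 or 2 of day 1 (-0.38 and -0.40, adjusted p = 0.027 and 0.022). *gst-43* (edgeR adjusted p = 0.092 and 0.18 against day 1), *gstk-2* (0.43 and 0.23) and *gsto-2* (0.10 and 0.14) were also not called, and the latter pair had few counts.

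The neighbouring genes of chromosome II could be followed as blocks. In the run from 13608154 to 13630887, *gst-24*, *gst-15* and *gst-16* were higher on day 7 than on day 1 and *gst-20*, at its edge, was lower. *gst-14* and *gst-12* were called higher too, but were tested only because of their later levels, and *gst-17*, *gst-18* and *gst-19* were not tested. In the run from 15163817 to 15185389, 5 of the 6 tested genes were lower (*gst-26*, *gst-27*, *gst-28*, *gst-29* and *gst-39*) and *gst-35* was not called. Over all genes, 30.6% were called higher and 31.3% lower in that comparison. Between *daf-2* and WT, 25.5% of all genes were called higher and 22.5% lower. In the first run, *gst-15*, *gst-19* and *gst-20* were higher in *daf-2* than in WT and the other 3 tested genes were not called. In the second, *gst-29*, *gst-39* and *gst-34* were higher and *gst-26* and *gst-28* lower, so that *gst-28* and *gst-29*, which are 960 bases apart, were called in opposite directions. On chromosome IV, *gst-3* and *gst-4* were both higher in *daf-2*. Of these *daf-2* calls, those of *gst-3*, *gst-19* and *gst-34* belong to genes tested only through the *daf-2* samples, where they are high. Neighbours of similar sequence may share reads, so genes of a run are not independent measurements.

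**Figure D4:**
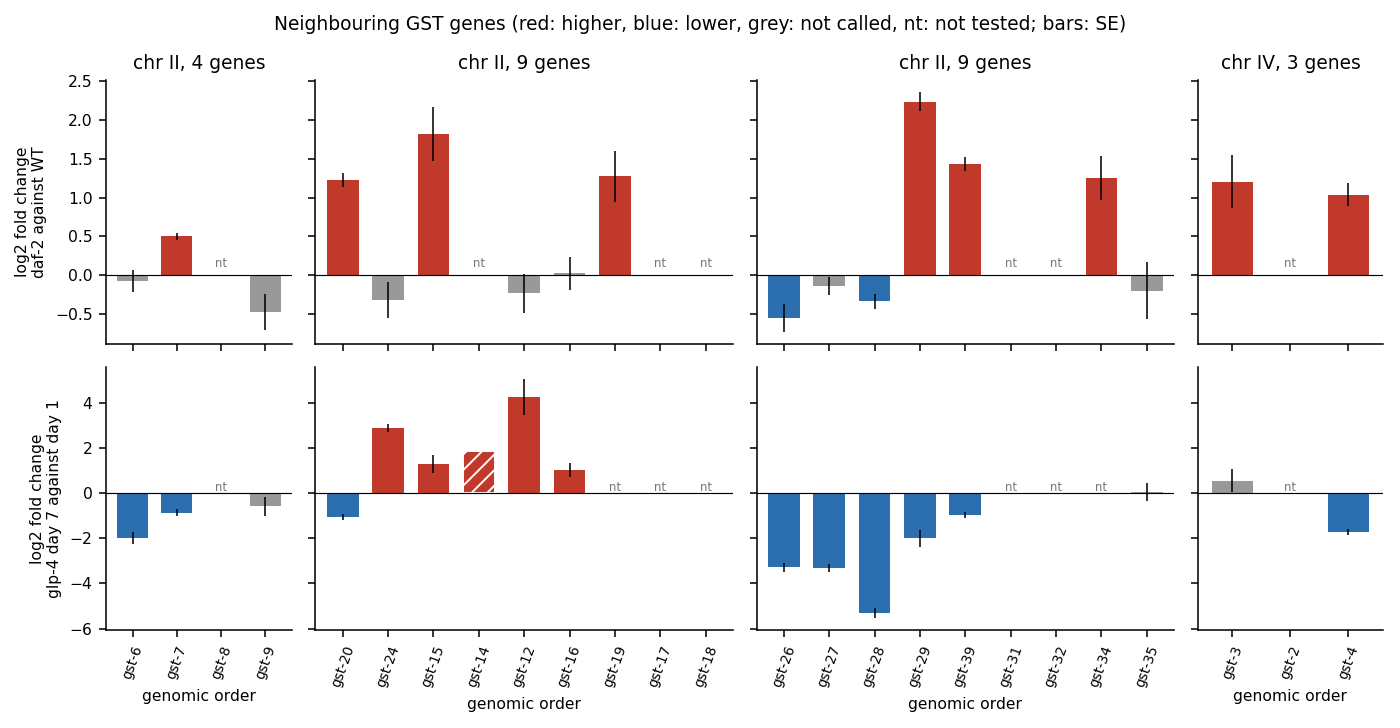
Log2 fold change of the genes in the 4 runs of neighbouring GST genes (x axis, genomic order) for *daf-2* against WT (upper row) and *glp-4* day 7 against day 1 (lower row), with SE bars (nt, not tested). In the upper row the red bars of *gst-3*, *gst-19* and *gst-34* belong to genes tested only through the *daf-2* samples. In the lower row the first run of 9 has red bars for *gst-24*, *gst-15* and *gst-16* and the second run has 5 blue bars. The red bars of *gst-14* and *gst-12* belong to genes tested only through their later levels, the hatched *gst-14* bar is a lower bound (3.70-fold, from the day 7 mean and a floor of 3 counts in each day 1 library), and the *gst-12* bar is a fitted value that rests on 2 counts on day 1.

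*daf-2* and *glp-4* ageing comparisons use separate samples, so their calls can be set side by side. Of the 15 members higher in *daf-2*, 8 were lower in *glp-4* animals on day 7 than on day 1 (*gst-4*, *gst-7*, *gst-10*, *gst-20*, *gst-29*, *gst-39*, *gst-42* and *gsto-1*), which is 53.3% of these 15 and 47.1% of the 17 that fell with age. For comparison, 50.0% of the tested members and 31.3% of all genes were lower by day 7. The 15 include 2 members not tested with age, so the 53.3% and the 50.0% are not on the same base. A further 2 were higher on day 7 (*gst-15* and *gst-41*), 3 were not called and 2 were not tested. Of the 6 members lower in *daf-2*, 5 were also lower on day 7 (*gst-13*, *gst-26*, *gst-28*, *gst-36* and *gst-38*), which is 83.3% of these 6 and 29.4% of the 17. The genes with the clearest increase with age, *gst-24* and *gsto-3*, were not called in *daf-2* (edgeR adjusted p = 0.29 and 0.12). These are counts, and no association was tested.

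The last comparison set *glp-4* against WT animals on day 1, which differ in the presence of a germline, in the *eri-1* allele and in larval temperature by the methods. Over all 15610 genes tested with edgeR's quasi-likelihood test on the 12 samples, 85.4% were called, 45.5% higher and 40.0% lower in *glp-4*, so most genes of the table were called. Of 42 members tested, 24 were higher (57.1%) and 6 lower (14.3%). The filter ran over all 12 samples, and for 5 of the higher (*gst-3*, *gst-21*, *gst-33*, *gst-40* and *gsto-2*) and 4 of the lower members (*gst-12*, *gst-30*, *gst-41* and *gst-44*) the samples of the lower group alone would not have passed it. The median log2 fold change was 1.11 over the members and 0.28 over all genes, and values in this comparison are to be read against the latter shift. With library totals in place of TMM factors, 18 members were higher and 9 lower, and with limma on log2(TPM + 1), 16 and 9. In the same samples intestinal markers summed to 2822 to 2842 TPM in *glp-4* and 476 to 501 TPM in WT, hypodermal markers to 4373 to 4916 and 2126 to 2205 TPM, and 6 oocyte markers to 2.73 to 3.82 and 2890 to 2993 TPM. Their part in the differences was not tested.

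Of the 5 members with the highest mean TPM, *gst-7* was the one called lower. On the scale of all 12 samples it stood at 40.99 and 38.5 CPM in *glp-4* on day 1 and at 135.7, 141.6 and 150.5 CPM in WT, a log2 fold change of -1.84 ± 0.10 (SE; edgeR adjusted p = 4.8e-12). It took 19.2% to 20.2% of the family's TPM in WT and 21.9% to 22.4% in *daf-2*, but 2.63% to 4.23% in the 6 *glp-4* samples. *gst-38* had the largest increase, at 39.4 and 39.9 CPM in *glp-4* and 2.58, 4.599 and 4.98 CPM in WT (log2 fold change 3.28 ± 0.21 SE, edgeR adjusted p = 1.0e-10). *gst-28* was at 73.4 and 68.5 CPM against 13.8, 15.3 and 15.2 CPM, and *gst-42* at 96.9 and 79.2 CPM against 19.4, 17.8 and 20.0 CPM, both without overlap (log2 fold change 2.26 ± 0.11 SE and 2.20 ± 0.12 SE). All 3 belong to the members that fell with age. That fall was measured from the same *glp-4* day 1 samples, so the results are not independent. *gst-1* was at 564 and 514 CPM against 187, 195 and 197 CPM, *gst-10* at 159 and 117 against 40.8, 43.2 and 45.1 CPM, and *gst-4* at 67.1 and 58.9 against 26.3, 24.4 and 24.3 CPM. All 3 were higher in *glp-4*, with log2 fold changes of 1.48 ± 0.10 (SE), 1.68 ± 0.11 (SE) and 1.33 ± 0.14 (SE).

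Low-level members also differed. *gst-12* had 2 counts in the 2 *glp-4* day 1 samples together and 96 counts in the 3 WT samples, so WT was 15.6 times higher (95% exact interval 4.21 to 131, counting error only). *gst-41* was at 0.35 and 0.59 CPM in *glp-4* and 2.47, 1.47 and 1.54 CPM in WT (log2 fold change -1.91 ± 0.46 SE, edgeR adjusted p = 0.00087). *gst-44*, at 0.93 and 0.79 against 2.26, 2.33 and 1.85 CPM, and *gst-22* were lower as well. *gst-30* was called lower with 6 and 0 counts in *glp-4*, but not without day 1 replicate 2 (log2 fold change -0.77, adjusted p = 0.32) or WT replicate 3 (-1.67, adjusted p = 0.065). *gst-40* was higher, at 1.63 and 1.58 CPM against 0.22, 0.37 and 0.35 CPM (log2 fold change 2.33 ± 0.50 SE, edgeR adjusted p = 0.00034). It overlaps an exon of *col-103* on the other strand, whose reads cannot be told apart from its own there. *gsto-2* was called higher on 4 and 8 counts against 3, 2 and 0 counts, and lost the call without *glp-4* replicate 2 (2.27, adjusted p = 0.096). *gst-15* was called higher at 1.63 and 3.65 CPM against 1.24, 1.29 and 1.23 CPM, but lost the call without *glp-4* replicate 2 (0.36, adjusted p = 0.61), WT replicate 1 (1.098, adjusted p = 0.053) or WT replicate 3 (1.09, adjusted p = 0.056). *gsto-1* and *gstk-1* were higher in *glp-4* (log2 fold change 1.98 ± 0.21 SE and 1.19 ± 0.12 SE), while *gsto-3* and *gstk-2* were not called. *gstk-2* (-0.53, adjusted p = 0.085) was called lower without WT replicate 3 (-0.66, adjusted p = 0.046) or *glp-4* replicate 2 (-0.90, adjusted p = 0.037).

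**Figure D5:**
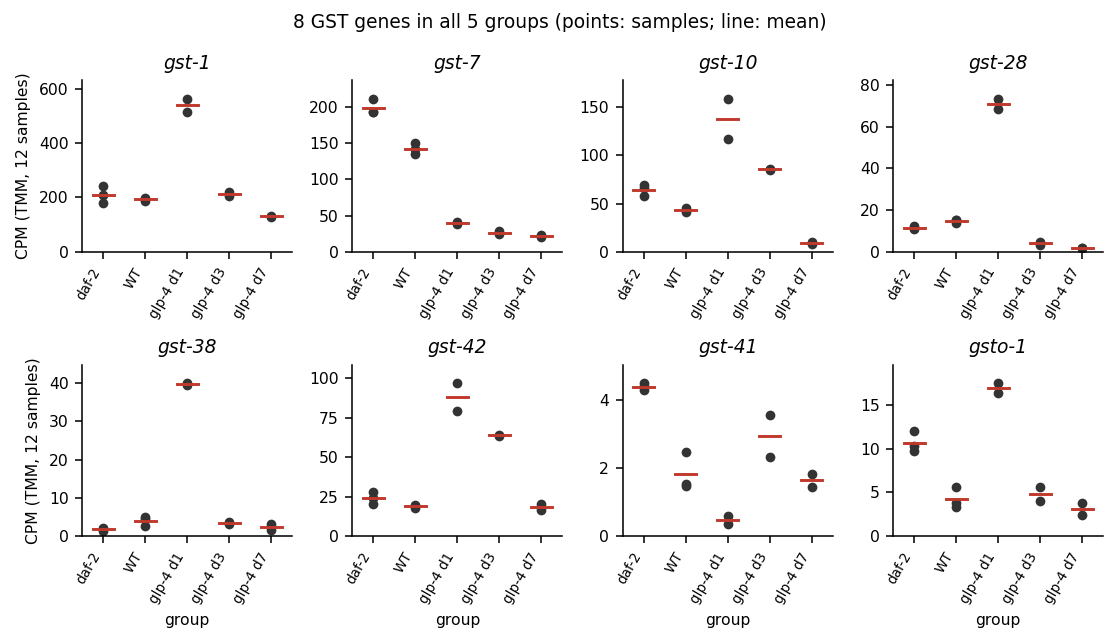
Level of 8 GST genes (y axis, CPM with TMM factors over all 12 samples, from 0) in the 5 groups (x axis), with a point per sample and a line at the group mean. The *glp-4* day 1 samples are the highest of the 12 for *gst-38* (39.4 and 39.9 CPM) and *gst-28* (73.4 and 68.5 CPM), and *gst-7* is lower in all 6 *glp-4* samples than in any *daf-2* or WT sample.

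Other genes of the pathway were read from lists of glutathione synthesis and recycling, glutathione peroxidases, conjugate exporters, the glyoxalase route, tyrosine degradation and regulators. Their counts are to be read against all genes, of which 25.5% were higher and 22.5% lower in *daf-2*, and 30.6% higher and 31.3% lower by day 7. In *daf-2*, the synthesis and recycling list had 1 of 12 genes higher and 2 lower. *gcs-1*, the rate-limiting enzyme of glutathione synthesis, did not pass the test (137 against 128 CPM, edgeR adjusted p = 0.17), and *gss-1*, the synthase, was lower (59.3 against 74.9 CPM, log2 fold change -0.34, edgeR adjusted p = 0.00018). With age in *glp-4* animals, 2 of the 12 were higher and 5 lower by day 7. *gss-1* fell from 46.7 to 19.7 CPM and glutathione reductase *gsr-1* from 83.9 to 54.2 CPM, whereas thioredoxin reductase *trxr-1* rose from 58.1 to 94.9 CPM. The median log2 fold change of the list was -0.02 in *daf-2* and -0.55 by day 7.

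Of 8 genes for multidrug resistance proteins, which export glutathione conjugates in other animals, 5 were lower in *daf-2*, where 22.5% of all genes were, and the other 3 were not called. *mrp-2* was the lowest relative to WT (2.55 against 12.9 CPM, log2 fold change -2.34, edgeR adjusted p = 1.0e-06). By day 7, 2 exporters were higher and 4 lower than on day 1 (30.6% and 31.3% of all genes), with *mrp-2* up from 23.1 to 82.1 CPM and *mrp-3* down from 120 to 27.9 CPM. Of the glutathione peroxidases, which use glutathione to reduce peroxides, 2 of the 7 tested were higher in *daf-2* (*gpx-2* and *gpx-7*; 25.5% of all genes), and by day 7 3 of 8 were higher and 3 lower, *gpx-5* falling from 78.3 to 19.3 CPM. In the glyoxalase route, which uses glutathione to remove methylglyoxal, *glod-4* was higher in *daf-2* (45.1 against 36.1 CPM, edgeR adjusted p = 0.0039), as was *djr-1.2* (2.34 against 0.21 CPM, edgeR adjusted p = 1.7e-05). The WT level of *djr-1.2* was under the cutoff of the filter on low counts. This gene was therefore tested only through the *daf-2* samples, where it is high. With age *glod-4* did not pass the test (15.9 CPM on day 1 and 12.4 CPM on day 7, edgeR adjusted p = 0.14).

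In tyrosine degradation, the pathway of the zeta-class enzymes, 3 of 4 genes were lower in *daf-2* (22.5% of all genes) while *gst-42* was slightly higher. The aminotransferase *tatn-1* was at 15.0 against 35.1 CPM and *hpd-1* at 87.2 against 136 CPM (edgeR adjusted p = 2.5e-06 and 9.3e-07). By day 7 *hpd-1* and *fah-1* were lower than on day 1, *fah-1* falling from 316 to 100 CPM. Among 12 regulators of detoxification, *skn-1* transcript did not pass the test in *daf-2* (245 against 258 CPM, edgeR adjusted p = 0.20), *pmk-1*, a p38 kinase that activates SKN-1, was higher (35.4 against 17.8 CPM, log2 fold change 0.99, edgeR adjusted p = 8.9e-06), and *daf-16* was lower (log2 fold change -0.25). In all, 2 of the 12 were higher and 3 lower, against 25.5% and 22.5% of all genes. By day 7, when 30.6% of all genes were higher and 31.3% lower, 3 were higher, among them *wdr-23*, whose product marks SKN-1 for degradation (79.8 to 141 CPM), and 6 were lower, among them *skn-1* (275 to 226 CPM) and the intestinal factor *elt-2* (43.3 to 23.9 CPM). Transcript levels do not report the activity of these factors.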

How the data were processed

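Whole-animal mRNA was sequenced as 50-base single reads from an unstranded kit. From their Cactus pipeline the authors deposited estimated counts, not normalized, and TPM values, both per gene. Kallisto, edgeR and DiffBind, and the builds WBcel235 and ce11, are named without a role in the submitters' processing notes. Symbols were found for 19957 of the 19997 genes.

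Estimated counts were rounded to whole numbers. Genes that passed edgeR's filterByExpr (at least 10 counts in enough samples and 15 in total) were scaled with TMM factors and tested with the quasi-likelihood test of edgeR 4.0.16 (R 4.3.3), with Benjamini-Hochberg adjustment across the tested genes. Calls required an adjusted p under 0.05. The SE given with a log2 fold change was derived from the test, as its absolute value divided by the square root of the F statistic. The *daf-2* and WT samples were fitted together, the 6 *glp-4* samples in one model, and *glp-4* against WT in a model of all 12 samples. The procedure was tested on simulated data. Alternatives used DESeq2 1.42.0, limma 3.58.1 on log2(TPM + 1) or log2(TPM + 0.1), other scalings and filters, the replicate number as a block, a 2-fold minimum, and each sample left out in turn. Python 3.11.15 with pandas 2.3.3 and matplotlib 3.10.9 served for tables and plots.

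Values per sample are given for the up to 5 called members with the largest increase and the up to 5 with the largest decrease in each comparison, for the 5 members with the highest mean TPM, and for *gst-4*, *gst-10*, *gst-42*, *gst-43* and the omega and kappa genes. The members, this rule and the other gene lists were chosen with earlier results of these data known, and the members set beside each other in figures and in the runs of neighbours were chosen with the values in view. Same-group samples had Spearman correlations of 0.973 to 0.988 across genes and had a chi-square per degree of freedom of 2.35 to 20.5 (1 being sampling noise), so none was a copy of another. No sample was left out. Protein and promoter sequences were not analysed here.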

Additional observations from a re-analysis of the deposited data

How the results depend on the processing

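Counts of called members stayed within 1.5 times their main value under every alternative that was run except the 2-fold minimum, which left 13 of 21 members in *daf-2* against WT and 11 of 17 in day 7 against day 3. Leaving out 1 sample at a time gave 18 to 23 called members for *daf-2* against WT, 16 to 21 for day 3 against day 1, 21 to 25 for day 7 against day 1, 13 to 20 for day 7 against day 3 and 26 to 32 for *glp-4* against WT. Samples with the same replicate number did not deviate together (correlations of -0.02 to 0.02). In a group of 2 samples the deviations mirror each other, and the check cannot show whether same-numbered samples share more than a number. The replicate block gave 21, 20, 24, 17 and 28 called members in the same order of comparisons. With library totals alone the median of all genes moved to 0.13 in *daf-2* against WT, and all called genes split into 71.8% higher there, 71.6% for day 7 against day 1 and 84.4% for day 7 against day 3, against 53.2%, 49.4% and 43.5% with TMM factors. With limma on TPM these splits were 72.3% to 72.6%, 68.6% to 69.6% and 74.3% to 76.2%, and with upper-quartile scaling that of day 7 against day 3 was 55.9%. Upper-quartile scaling moved the median of all genes to 0.22 for day 7 against day 1, 0.12 for day 7 against day 3 and 0.63 for *glp-4* against WT. The summed family level relative to WT was 1.38 in *daf-2*, 1.57, 1.03 and 0.781 in *glp-4* on days 1, 3 and 7. Without *gst-1* it was 1.44 in *daf-2* and 1.36 and 1.06 on days 1 and 3, and from summed TMM-scaled CPM 1.24, 2.05, 1.23 and 0.718. Of 2432 values recomputed for 141 results on single genes, 98 lost and 40 gained a call, 68 changed sign without a call on either side, and 3 reversed. These were *gstk-1* in day 7 against day 1 with library totals (0.000167 on the log2 scale against -0.54), and *gst-36* in *glp-4* against WT (0.05 on the log2 scale, not called), which was called lower by limma on log2(TPM + 1) (-0.32) and on log2(TPM + 0.1) (-0.33). The causes were not tested. The planned description of protein identity and promoter motifs was not run. Depth was lowest on day 7, which limits the members with few counts there.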

Other observations

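Some members were too low to be tested in most or all comparisons, and their counts are given as values. *gst-18* had 0 counts in all 6 *glp-4* samples and between 0 and 5 counts in the 6 *daf-2* and WT samples. *gst-8*, reported to act on 4-hydroxynonenal, had 7, 6 and 2 counts in *daf-2*, 0, 0 and 1 counts in WT, and 0 to 4 counts in the *glp-4* samples. *gst-32* had 16, 4 and 8 counts in *daf-2*, 5, 7 and 9 counts in WT, and no more than 1 count in any *glp-4* sample. *gst-34*, which was tested only through the *daf-2* samples and called higher there, could not be followed with age. It had 30, 23 and 34 counts in *daf-2*, 13, 11 and 12 counts in WT, and between 0 and 3 counts in the *glp-4* samples.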
